A study of Mus musculus with 23 samples.

Results

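The genes of the proteasome, the protease complex that degrades ubiquitin-tagged proteins, were examined in the nucleus accumbens of mice from a pair of selectively bred lines. Members were all genes whose platform symbol begins with Psma, Psmb, Psmc, Psmd or Psme followed by a number, each represented by the probe set with the highest mean over the arrays. The rule gave 42 genes of the 8251 tested: 7 of the outer alpha ring, 7 standard and 3 immunoproteasome subunits of the beta ring, 6 ATPases of the base, 14 lid and other regulatory genes, 3 activators, and Psmc3ip and Psme3ip1, which match by symbol only and encode proteins that interact with a subunit. The comparison set by the rule was that of the 4 groups, with Psmb6 set against the others. Psmb6 was singled out with its line difference already known, so its values are given as a description.

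The lines were short-term selected from a cross of C57BL/6J and DBA/2J mice, for a high (HMACT) or a low (LMACT) response to acute methamphetamine (MA). Mice were injected with saline or 2 mg/kg MA and killed 1 hour afterwards. The 23 arrays, all of tissue pooled 4 ways, comprised 6 HMACT arrays after saline, 6 HMACT after MA, 6 LMACT after saline and 5 LMACT after MA. HMACT replicates 1 to 3 of each injection had mean ages of 141.5 to 154 days and replicates 4 to 6 of 77.25 to 88 days, whereas LMACT pools were 60 to 72.75 days old except replicate 6, at 127.5 days after saline and 114.75 days after MA. The labels name 1 line of each kind, so selection for the MA response and any other difference between these lines cannot be told apart, and in pooled tissue fewer cells of a type and less RNA per cell cannot be told apart.

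In the core particle, stacked rings form a chamber: the alpha rings gate its entrance, and the beta rings carry the proteolytic sites. Psmb5, Psmb6 and Psmb7 encode the chymotrypsin-like, caspase-like and trypsin-like sites, and interferon-inducible Psmb8, Psmb9 and Psmb10 take their places in the immunoproteasome. The regulatory cap binds ubiquitin chains, removes them and threads the substrate into the core with its ring of ATPases. Proteasome genes are known to be induced together by the transcription factor Nfe2l1 through antioxidant response elements when proteasome activity is short. In neurons the proteasome takes part in synaptic protein turnover.

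The 250 bases before the transcription start are shown for Psmb6, the member called between the lines, for Psmb3, the other beta subunit with the next smallest p-value and on the same chromosome, and for Psmc6, the member with the widest spread between arrays. They come from RefSeq (GRCm38.p6), which held promoters of 36 of the 42 members, and are read 5′ to 3′ on the plus strand. Capitals mark matches, on either strand, to the antioxidant response element core TGACNNNGC, the CCAAT box CCAAT and the GC box GGGCGG, and no marked matches share a base.
Psmb6, chr11:70525107-70525356: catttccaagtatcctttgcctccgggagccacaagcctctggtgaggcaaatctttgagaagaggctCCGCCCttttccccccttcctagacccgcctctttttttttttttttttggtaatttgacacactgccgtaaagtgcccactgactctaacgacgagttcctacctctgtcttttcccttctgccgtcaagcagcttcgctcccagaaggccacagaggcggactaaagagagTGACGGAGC
Psmb3, chr11:97703184-97703433: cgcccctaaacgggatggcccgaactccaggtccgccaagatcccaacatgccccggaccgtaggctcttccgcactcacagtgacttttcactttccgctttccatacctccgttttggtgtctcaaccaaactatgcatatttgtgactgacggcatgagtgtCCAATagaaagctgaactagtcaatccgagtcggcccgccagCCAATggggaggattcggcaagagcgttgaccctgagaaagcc
Psmc6, chr14:45329574-45329823: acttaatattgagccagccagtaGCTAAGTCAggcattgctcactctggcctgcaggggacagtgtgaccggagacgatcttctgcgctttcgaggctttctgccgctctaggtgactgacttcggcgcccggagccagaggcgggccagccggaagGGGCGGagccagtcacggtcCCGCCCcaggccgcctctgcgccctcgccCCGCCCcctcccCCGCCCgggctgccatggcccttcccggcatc
The core of the antioxidant response element was found in the promoters of 5 of the 36 members, Psmb5, Psmb6, Psmc6, Psmd12 and Psmd9, and in 10.2% of all 32851 RefSeq promoter windows of that length. The CCAAT box was found in 15 of the 36 members against 33.8% of all windows, and the GC box in 21 of the 36 against 32.7%. Members were counted by gene over their 39 promoter windows, whereas the shares of all are by single window, so the units differ. Psmb6 had 1 antioxidant response element core and 1 GC box, Psmb3 had 2 CCAAT boxes, and Psmc6 had 1 antioxidant response element core and 4 GC boxes. These are matches of letters, not measured binding sites.

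Values are read as log2 intensities, since they ran from 2.23 to 16.36, and a value under 2.3 is called the floor, below which a level has no order. Psmc4, an ATPase of the base, was at the floor on all 23 arrays. Psmb9 and Psmd2 were at the floor on 22 arrays, Psmc3ip on 20 and Psmb8 on 15, and the other 37 members were above it on every array. Striatal markers were present, with Penk at 13.48 to 14.59, Tac1 at 9.28 to 10.33 and Drd2 at 5.17 to 7.11, while Rgs9 was at the floor throughout. Differences between the 4 groups were fitted with limma over all 8251 genes, a gene being called at a Benjamini-Hochberg adjusted p under 0.05. The number of arrays limits the precision.

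On the first principal component of the residuals, which held 62.1% of the residual variance of 5308 genes, 4 arrays stood apart: HMACT saline replicates 3 and 5, HMACT MA replicate 3 and LMACT MA replicate 4. Their scores were 41.8 to 65, against -22.8 to 23.8 in the other 19. The mean level of the 7 microglial markers above the floor was 7.11 to 8.44 in them against 6.09 to 7.01 in the others. The 3′ minus 5′ difference of the control transcripts, a sign of RNA quality, was 1.07 to 2.26 against 2.12 to 4.57. Because 3 of the 4 were HMACT arrays, for many of the members described the line difference is also given without them, and the part of microglial RNA and RNA quality in these differences was not tested.

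Psmb6, the caspase-like subunit, was higher in HMACT than in LMACT and was the member with the largest difference between the lines. After saline its level in HMACT was 7.86 ± 0.91 (SD, n = 6; lowest 6.84, median 7.62, highest 9.44), and in LMACT 6.27 ± 0.60 (SD, n = 6; lowest 5.69, median 6.12, highest 7.13). After MA it was 7.54 ± 0.52 in HMACT (SD, n = 6; lowest 7.04, median 7.43, highest 8.37). In LMACT after MA it was 5.98 ± 0.73 (SD, n = 5), with array values of 5.06, 6.04, 7.10, 5.97 and 5.75. Both HMACT groups thus lay above both LMACT groups, but the lines overlapped: 9 of the 12 HMACT arrays were above the highest LMACT array, and 9 of the 11 LMACT arrays were below the lowest HMACT array. In order of level, the 2 HMACT groups are neighbours that differed by less than their SDs, and so are the 2 LMACT groups.

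The line difference in Psmb6, as the mean over both injections, was 1.57 on the log2 scale (SE 0.292, 2.97-fold, limma adjusted p = 0.0233). It stood 10 in order of p among all 8251 genes, of which 0.194% were called in this comparison. After saline the difference was 1.58 (SE 0.403, limma adjusted p = 0.32) and after MA 1.56 (SE 0.423, limma adjusted p = 0.503), and no gene on the array passed the threshold within either injection. Without the 4 arrays that stood apart the mean line difference was 1.38 (SE 0.218, limma adjusted p = 0.0123). Within chip lots, with the single array of the rarest lot counted with the last, it was 1.58 over 15 arrays, 1.64 over 4 and 1.51 over 4. Psmb6 was measured by 1 probe set, so no second probe set could be set beside it.

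The call did not hold under every setting. With mean age as a covariate the difference was 1.57 (limma adjusted p = 0.22), and over pools under 100 days only it was 1.41 (SE 0.327, limma adjusted p = 0.547). Those younger pools were 77.25 to 88 days old in HMACT and 60 to 72.75 days old in LMACT. Line and age therefore cannot be told apart among them. Under either setting 1 of the 8251 genes was called, against 16 in the main fit. Leaving out LMACT saline replicate 1 gave 1.54 (limma adjusted p = 0.0502), LMACT saline replicate 6 gave 1.51 (limma adjusted p = 0.0524) and LMACT MA replicate 6 gave 1.54 (limma adjusted p = 0.0583). Within HMACT, the 6 pools over 100 days averaged 7.78 ± 0.98 (SD; 6.84 to 9.44) and the 6 under 100 days 7.62 ± 0.43 (SD; 7.06 to 8.29). That difference of 0.16 had p = 0.745 in an exact two-sided permutation test, and over the alternatives it ran from -0.27, without the arrays that stood apart, to 0.58, over the lot of most arrays. The pair of older LMACT pools, 1 per injection, had Psmb6 levels of 5.69 after saline and 5.75 after MA. All HMACT pools over 100 days were of the same chip lot, unlike the younger ones. Age and line were partly confounded, so the part of age in the line difference cannot be told from these values.

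**Figure D1:**
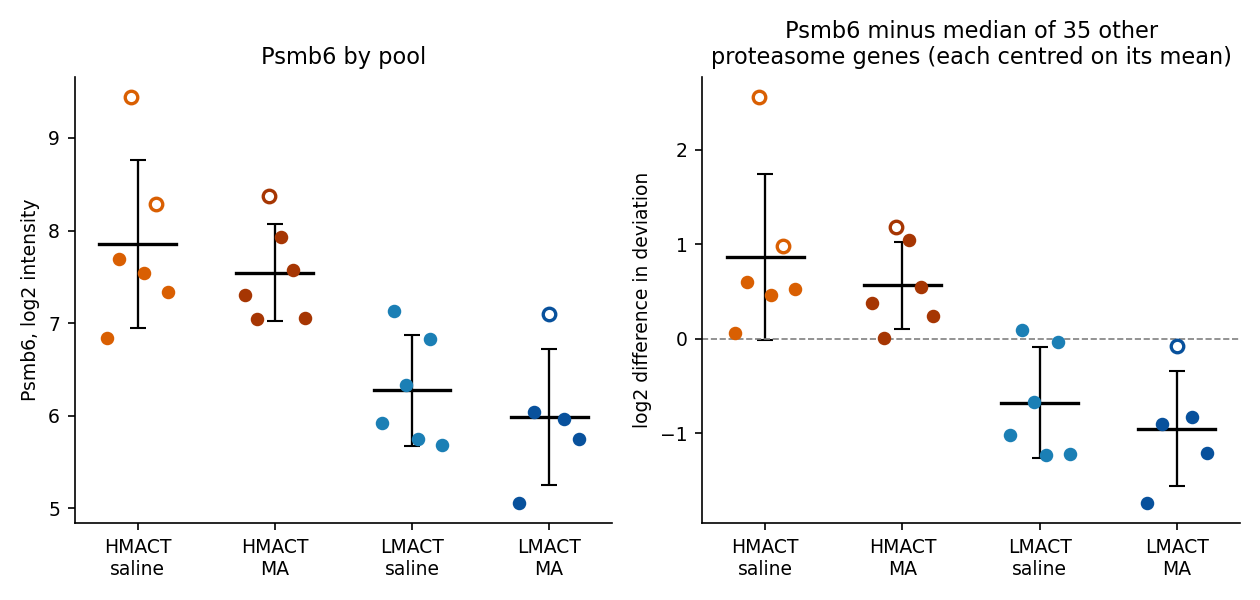
Psmb6 in each pool by line and injection (left, log2 intensity), and the same after subtracting, on each array, the median deviation of 35 other members above the floor on every array (Psme3ip1 left out), each gene centred on its mean over 23 arrays (right, log2 difference). Points are arrays, open points are the 4 arrays that stood apart, and bars are the group mean ± SD; HMACT arrays lay at 6.84 to 9.44 and LMACT arrays at 5.06 to 7.13.

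Psmb6 was then set against the rest of the complex on each array, taken as the 35 other members above the floor on every array, with Psme3ip1 left out. Its deviation from its own mean, minus the median deviation of 35 other members on the same array, was positive on 12 of 12 HMACT arrays (0.01 to 2.56) and negative on 10 of 11 LMACT arrays (-1.74 to 0.09). The group means of this log2 difference were 0.87 ± 0.88 (SD, n = 6) in HMACT after saline, 0.57 ± 0.46 (SD, n = 6) in HMACT after MA, -0.68 ± 0.59 (SD, n = 6) in LMACT after saline and -0.95 ± 0.60 (SD, n = 5) in LMACT after MA. Without the arrays that stood apart the HMACT mean was 0.43 ± 0.31 (SD, n = 9) and the LMACT mean -0.88 ± 0.56 (SD, n = 10). The 40 other members above the floor on at least 1 array had a median line difference of 0.10, and that of all 6162 such genes was 0.01.

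Psmb6 was the 1 member of 42 called between the lines, where 0.133% of all genes were called higher in HMACT and 0.0606% lower. At an unadjusted p under 0.05 in limma, 5 members were higher and 5 lower in HMACT, which is 23.8% of them against 12.7% of all genes (4.97% higher, 7.7% lower). This count of 10 members was 6 without HMACT MA replicate 3 or LMACT MA replicate 5, 17 without LMACT MA replicate 4, and 3 with mean age as a covariate or over pools under 100 days. The share of all genes at that threshold was not counted under these settings. At the adjusted threshold the genes called went from 16 to 15, 17, 76, 1 and 1 in the same order. Of the 41 members above the floor on some array, 27 had a positive and 14 a negative difference. The lines overlapped in all 41, as they did in most genes: 0.0162% of the 6162 did not overlap with HMACT higher, and 0.0162% with HMACT lower. The other 41 members lacked a call in either direction in this fit. With arrays weighted by their quality in limma, 9 of 42 members passed the threshold, as did 830 of the 8251 genes (10.1%, against 0.194% unweighted). Among the 9 were Psmb3 at 0.58 (limma adjusted p = 0.0206), Psma3 at -0.34 (limma adjusted p = 0.0174) and Psmc1 at -0.26 (limma adjusted p = 0.0441). After saline 4 members passed with weights, where 2.86% of all genes did, and after MA 2, where 1.65% did. Values by role follow from the unweighted fit.

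**Figure D2:**
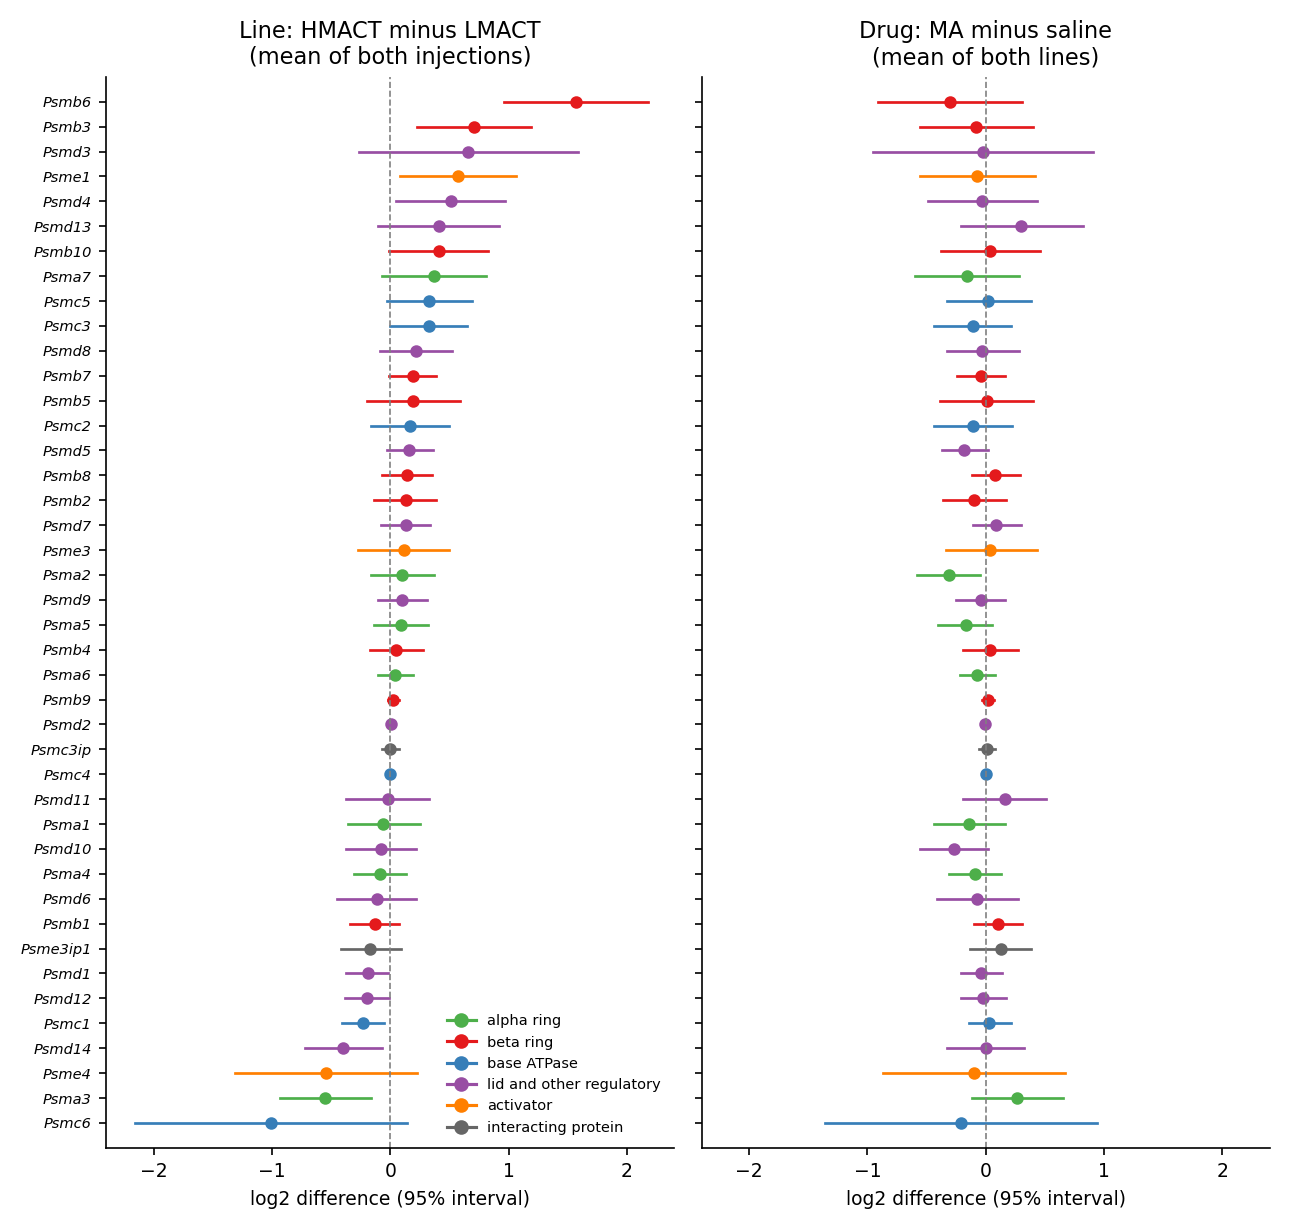
Line difference (left, HMACT minus LMACT, mean of both injections) and MA difference (right, MA minus saline, mean of both lines) of the 42 members, as log2 differences with 95% intervals from limma, ordered by line difference and coloured by role. Psmb6 at 1.57 is the member farthest to the right on the left, and Psmc6 at -1.01 the farthest to the left, with an interval that spans 0.

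Of the other proteolytic subunits, none was called. Psmb5 had a line difference of 0.19 (95% interval -0.20 to 0.59) and Psmb7 one of 0.19 (-0.01 to 0.39), and without the arrays that stood apart these were 0.14 and 0.15. Psmb5, the chymotrypsin-like subunit, was at 8.02, 9.05 and 9.89 (lowest, median, highest) in HMACT after saline, 8.67, 9.05 and 9.73 in HMACT after MA, and 8.53, 8.91 and 9.21 in LMACT after saline. Its LMACT values after MA were 8.64, 8.70, 9.59, 8.51 and 8.89, so the 4 groups overlapped. Psmb7, the trypsin-like subunit, was at 8.98, 9.59 and 9.91 in HMACT after saline, 9.59, 9.73 and 9.92 in HMACT after MA, and 9.39, 9.57 and 9.91 in LMACT after saline. After MA the LMACT arrays read 9.25, 9.57, 9.24, 9.23 and 9.30, so the highest of them, at 9.57, lay just under the lowest HMACT array of that injection, at 9.59. How many of all genes did not overlap between these groups was not counted. The difference after MA in Psmb7 was 0.44 (SE 0.138, limma adjusted p = 0.653).

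Among the immunoproteasome subunits, Psmb10 was the 1 above the floor on every array. Its level was 7.93, 8.56 and 9.57 (lowest, median, highest) in HMACT after saline, 7.99, 8.32 and 9.77 in HMACT after MA, 7.84, 8.09 and 8.21 in LMACT after saline, and 8.14, 8.02, 8.74, 8.24 and 8.12 in LMACT after MA. Its line difference was 0.41 (95% interval -0.01 to 0.83), and 0.19 without the arrays that stood apart, on which it read 8.74 to 9.77. Psmb8 reached 3.33 at most, on HMACT MA replicate 3, and stayed between 2.26 and 2.63 on the LMACT arrays. Psmb9, which replaces Psmb6 in the immunoproteasome, read above the floor only on HMACT MA replicate 3, at 2.49. Psmb9 therefore gave no level to set beside that of Psmb6.

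Psmb3, a structural beta subunit, had the second smallest p-value among the members. It was at 10.17, 10.67 and 11.55 (lowest, median, highest) in HMACT after saline and 9.83, 10.26 and 11.95 in HMACT after MA. In LMACT it was at 9.74, 9.90 and 10.37 after saline, and its values after MA were 9.48, 10.06, 10.83, 9.59 and 9.80. The highest array of 3 of the groups was one that stood apart, and the lines overlapped. The line difference was 0.71 (SE 0.231, 1.64-fold, limma adjusted p = 0.261), and 0.53 (SE 0.144, limma adjusted p = 0.0997) without those arrays. The remaining beta subunits lay near 0, with Psmb1 at -0.13, Psmb2 at 0.13 and Psmb4 at 0.05, and the median of the 6 standard beta subunits without Psmb6 was 0.16.

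In the alpha ring, the median line difference was 0.04 over 7 members, of which none was called. Psma3 was lower in HMACT at the unadjusted threshold, by -0.55 (SE 0.186, limma adjusted p = 0.28). It was at 10.07, 11.73 and 11.88 (lowest, median, highest) in HMACT after saline, 11.18, 11.95 and 12.18 in HMACT after MA, and 12.02, 12.13 and 12.40 in LMACT after saline. Its LMACT values after MA were 12.12, 12.16, 11.72, 12.86 and 12.46. The 2 lowest of all arrays were HMACT saline replicate 3 and HMACT MA replicate 3, which both stood apart, and without the 4 such arrays the difference was -0.41 (SE 0.0914, limma adjusted p = 0.0596). The other alpha subunits ranged from -0.09 for Psma4 to 0.37 for Psma7.

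Among the base ATPases, which unfold the substrate, differences went both ways and none was called. Psmc1 was at 7.42, 7.62 and 8.07 (lowest, median, highest) in HMACT after saline, 7.32, 7.42 and 7.78 in HMACT after MA, and 7.46, 7.71 and 7.81 in LMACT after saline, and its LMACT values after MA were 7.73, 7.89, 8.23, 7.78 and 8.15. The line difference was -0.23 (SE 0.0839, limma adjusted p = 0.311), with 0.02 after saline and -0.48 after MA, and the mean was -0.27 without the arrays that stood apart. Psmc3 had 0.33 (limma adjusted p = 0.394), Psmc5 0.33 and Psmc2 0.17, and without those arrays they had 0.28, 0.26 and 0.25. Psmc6 had the largest negative value, -1.01, with the largest SE among the members, 0.552, and it was -0.95 without those arrays and -0.36 over pools under 100 days. Psmc6 was lowest on the arrays that stood apart, as described further on, but still ran from 8.29 to 10.78 on the others.

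Of the 14 lid and other regulatory genes, 1 was higher and 3 lower in HMACT at an unadjusted p under 0.05 in limma, where 4.97% and 7.7% of all genes were, and none was called. Psmd4, a ubiquitin receptor, had a line difference of 0.51 (SE 0.219, limma adjusted p = 0.355), with 9.81 to 11.71 in HMACT and 9.25 to 11.02 in LMACT, and 0.34 without the arrays that stood apart. Psmd14, the deubiquitinating enzyme of the lid, had -0.40 (SE 0.155, limma adjusted p = 0.33), with 7.63 to 9.10 in HMACT and 8.17 to 9.23 in LMACT, and -0.33 without those arrays. The scaffold subunit Psmd1 had -0.19 and the lid subunit Psmd12 -0.20, and without those arrays -0.22 and -0.16. Psmd3 had 0.66 with a wide interval of -0.26 to 1.59. It read 7.17 and 5.65 on HMACT saline and MA replicates 3, and without the 4 arrays that stood apart the difference was 0.14. The others, Psmd5, Psmd6, Psmd7, Psmd8, Psmd9, Psmd10, Psmd11 and Psmd13, ranged from -0.11 for Psmd6 to 0.41 for Psmd13.

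Of the activators, Psme1, a subunit of an interferon-inducible activator ring, had a line difference of 0.57 (SE 0.234, limma adjusted p = 0.342), and 0.36 without the arrays that stood apart. Its range was 7.48 to 9.89 in HMACT and 7.48 to 8.64 in LMACT. Psme3, of the related nuclear activator, had 0.12, and Psme4, a large single-chain activator, had -0.54 with an SE of 0.370, and -0.41 without those arrays. The interacting proteins Psmc3ip and Psme3ip1 had 0.00 and -0.17.

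**Figure D3:**
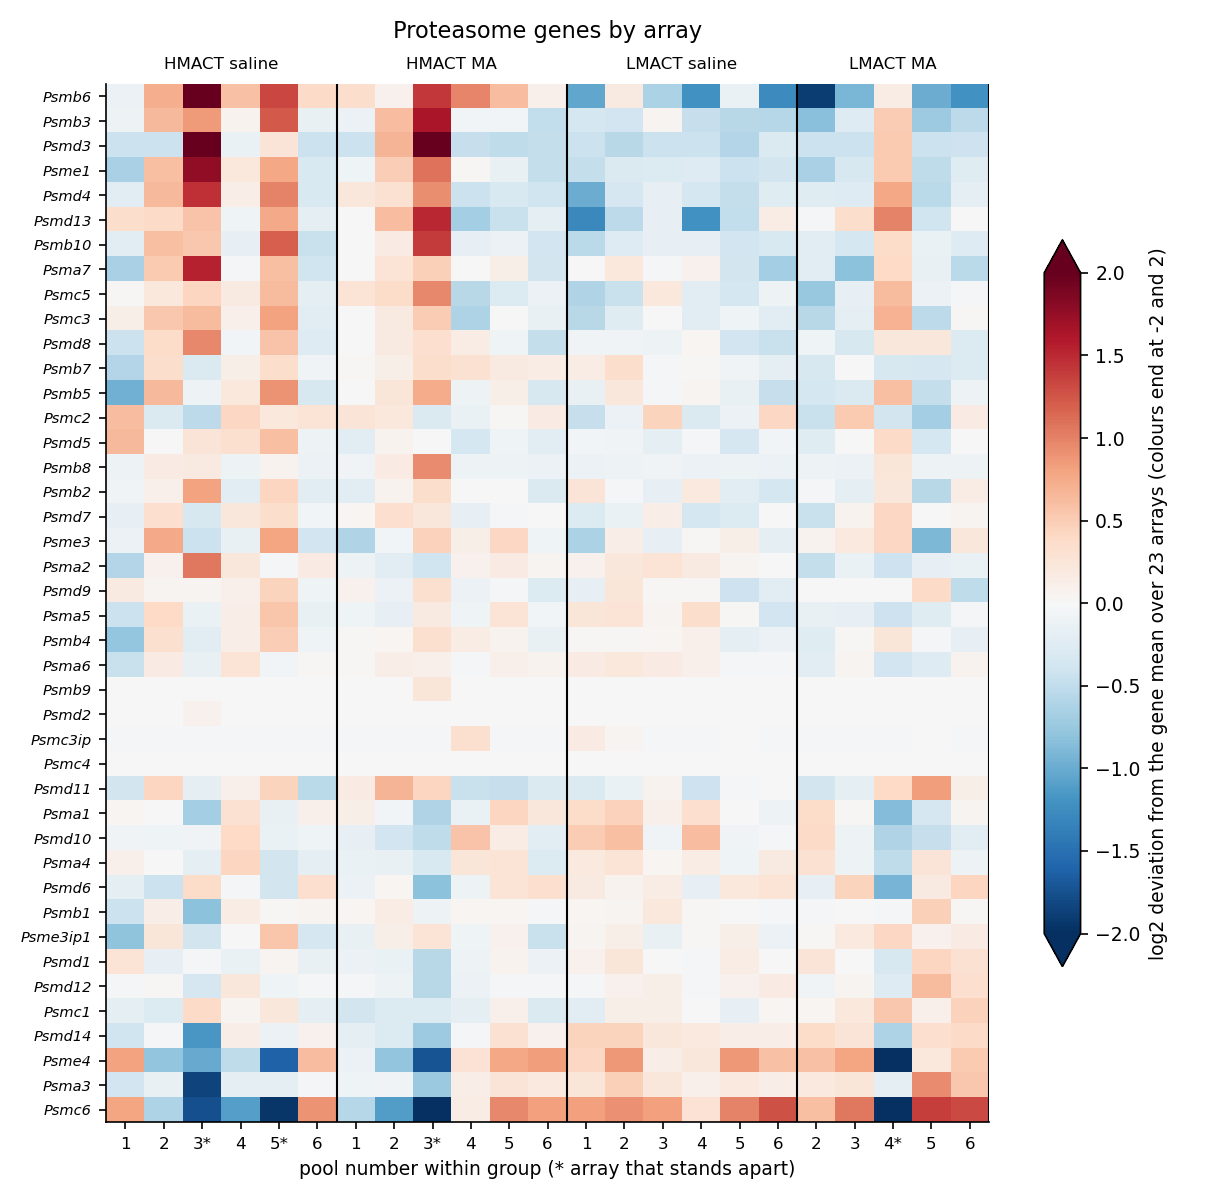
Log2 deviation of each of the 42 members (rows, ordered by line difference) from its mean over the 23 arrays, for every array (columns, by group and replicate number; asterisks mark the 4 arrays that stood apart). Psmb6, at the top, is red on most HMACT and blue on most LMACT arrays, while Psmc6, at the bottom, is darkest blue on the 4 arrays with asterisks.

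Methamphetamine gave no called difference in any member. As the mean over both lines, 0 of 42 members passed at an adjusted p under 0.05 in limma, against 0.0242% of all genes, and 1 member, Psma2, passed at an unadjusted p under 0.05, with a negative difference, which is 2.38% against 1.5% of all genes in either direction and 0.618% in that one. The median MA difference was -0.03 over the 41 members above the floor on some array, 15 of them positive and 26 negative, and 0.00 over all such genes. For Psmb6 the MA difference was -0.30 (SE 0.292, 95% interval -0.91 to 0.31), with -0.31 in HMACT and -0.29 in LMACT. With 1 array left out it ranged from -0.44 to -0.14, from -0.52 to 0.00 in HMACT and from -0.57 to -0.06 in LMACT. Its interaction, the MA difference in HMACT minus that in LMACT, was -0.02 (95% interval -1.24 to 1.20). This interval spans differences in either direction.

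Psma2, an alpha subunit, had the smallest p-value for MA, with a difference of -0.31 (SE 0.127, limma adjusted p = 1). It was at 8.96, 9.66 and 10.60 (lowest, median, highest) in HMACT after saline, 9.14, 9.52 and 9.71 in HMACT after MA, and 9.55, 9.67 and 9.81 in LMACT after saline. Its LMACT values after MA were 9.07, 9.40, 9.12, 9.37 and 9.41, all below the lowest LMACT saline array, whereas in HMACT the groups overlapped. How many of all genes did not overlap between the LMACT groups was not counted. Without the arrays that stood apart, which include the highest HMACT saline array, the MA difference was -0.17 (SE 0.0951).

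Psmd10 and Psmd5, both assembly chaperones of the base, followed. Psmd10 had an MA difference of -0.27 (SE 0.140, limma adjusted p = 1). It was at 4.05, 4.11 and 4.59 (lowest, median, highest) in HMACT after saline, 3.68, 4.00 and 4.76 in HMACT after MA, 4.12, 4.42 and 4.80 in LMACT after saline, and 4.57, 4.08, 3.58, 3.72 and 3.98 in LMACT after MA. Psmd5 had -0.18 (SE 0.0929, limma adjusted p = 1). It was at 6.12, 6.50 and 6.87 in HMACT after saline, 5.87, 6.07 and 6.29 in HMACT after MA, 5.88, 6.16 and 6.19 in LMACT after saline, and 5.97, 6.20, 6.60, 5.86 and 6.20 in LMACT after MA. The median of Psmd5 was highest in HMACT after saline, and its groups overlapped in both lines.

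Within the single groups the counts were also without a call. After saline, 7 members were higher and 2 lower in HMACT at an unadjusted p under 0.05 in limma, 21.4% of them against 15.2% of all genes (6.76% higher, 8.46% lower), and 0 at the adjusted threshold, which 0.0% of all genes passed. After MA, 3 were higher and 3 lower, 14.3% against 4.29% (1.45% higher, 2.84% lower), again with 0 adjusted calls in limma. MA against saline in HMACT gave 0 adjusted calls against 0.0121% of all genes, and 1 unadjusted in limma, Psmd5 at -0.42 (2.38% of members, 1.55% of genes, 1.05% in that direction), which was 3 without HMACT saline replicate 1, 2 or 6 and 2 without HMACT saline replicate 5, HMACT MA replicate 3 or HMACT MA replicate 5. In LMACT it gave 0 adjusted and 6 unadjusted in limma, 2 higher and 4 lower (14.3% against 3.33%, which was 2.27% higher and 1.07% lower), among them Psma6 at -0.24, Psmc1 at 0.28, Psmd10 at -0.46 and Psma2 at -0.40. That count of 6 was 0 without LMACT saline replicate 1 or LMACT MA replicate 4, 1 without LMACT saline replicate 2, 2 without LMACT saline replicate 4, 3 without LMACT saline replicate 3, LMACT MA replicate 5 or LMACT MA replicate 6, and 1 without the arrays that stood apart. The interaction gave 0 adjusted and 4 unadjusted in limma (9.52% against 2.62%, which was 0.618% positive and 2.0% negative): Psmc1 at -0.50, Psmd5 at -0.49, Psmb7 at 0.50 and Psma6 at 0.34. The interaction count was 6 without HMACT MA replicate 3 and 1 without the arrays that stood apart. The counts after saline were 14 without HMACT saline replicate 6, 2 with mean age as a covariate and 4 over pools under 100 days. Those after MA were 3 without HMACT MA replicate 3 or LMACT MA replicate 5, 8 without LMACT MA replicate 4 and 9 without the arrays that stood apart. These comparisons share groups of arrays, so they are set side by side and not compared. For the counts with arrays left out or with age taken into account, the share of all genes at the unadjusted threshold was not counted. Whether the members or all genes moved can therefore not be told from them.

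**Figure D4:**
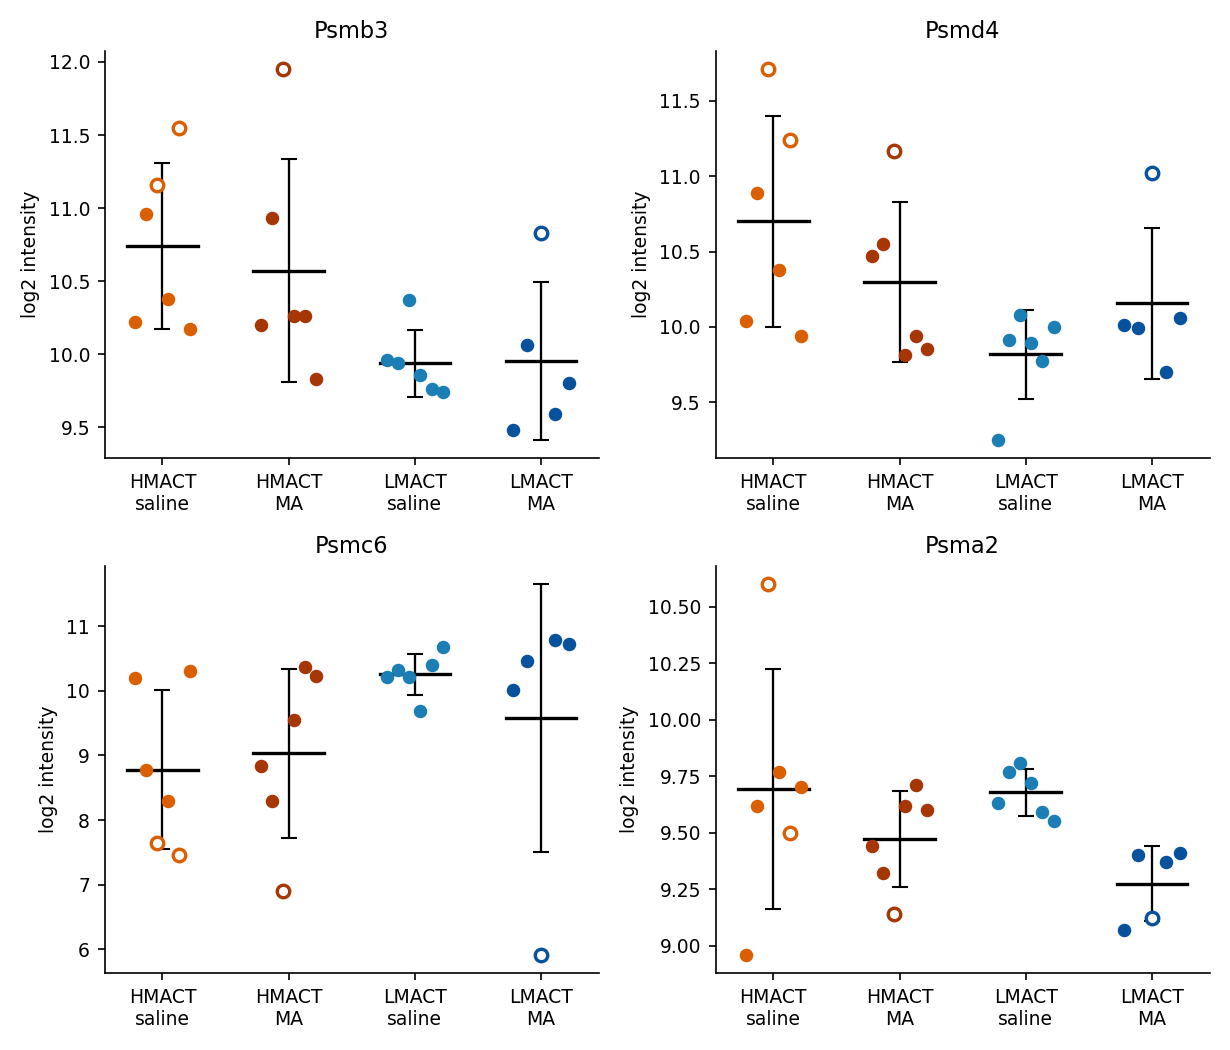
Log2 intensity of Psmb3, Psmd4, Psmc6 and Psma2 on each array, by line and injection, with the group mean ± SD; open points are the 4 arrays that stood apart. In Psmb3 and Psmd4 the open points are high, in Psmc6 they are the lowest 4 at 5.92 to 7.64, and in Psma2 the LMACT arrays after MA lie below those after saline.

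Across the arrays, 4 members read outside the range of all others on the 4 arrays that stood apart. Psmc6, which read 7.64 and 7.46 on HMACT saline replicates 3 and 5, 6.91 on HMACT MA replicate 3 and 5.92 on LMACT MA replicate 4, was at 8.29 to 10.78 on the other 19 arrays. Psme4 was likewise below all other arrays on these 4, at 2.55 to 3.54 against 3.76 to 5.42. Psmc5 was above, at 7.20 to 7.73 against 6.02 to 7.14, and so was Psmd4, at 11.02 to 11.71 against 9.25 to 10.89. So 2 of 41 members lay wholly below and 2 wholly above the others, where 7.42% and 9.22% of the 6162 genes did. Psmb6 was not among them, as its values of 9.44, 8.29, 8.37 and 7.10 on these arrays overlapped the range of 5.06 to 7.93 on the rest. Within its own group, however, each of these arrays read above every array that did not stand apart. The highest of the latter were 7.69 in HMACT after saline, 7.93 in HMACT after MA and 6.04 in LMACT after MA. The 4 arrays were picked on residuals from the group means. The share of all genes that separate them within groups was not counted, so this is not read as a trait of Psmb6.

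The genes with the pattern most like Psmb6 over the 23 arrays were Rex1bd (Pearson r = 0.90), Rab3b (0.87), Coa3 (0.87), Chchd6 (0.86) and Etfb (0.86), among 5308 genes above the floor on at least 12 arrays. Over the 19 arrays without those that stood apart, their r was 0.83, 0.77, 0.79, 0.74 and 0.73. By residuals from the 4 group means they were Rex1bd (0.87), Prkag1 (0.86), Cfap20 (0.86), Rtraf (0.85) and Tmem160 (0.84), and over the 19 arrays 0.59, 0.58, 0.60, 0.56 and 0.52. Among the members, Psme1 (0.80) and Psmb3 (0.77) were the most like Psmb6 in their values, and Psma3 (-0.72) and Psmd14 (-0.71) the least. Over the 19 arrays these were 0.58, 0.66, -0.43 and -0.49. By residuals from the group means, the same members had 0.78, 0.63, -0.55 and -0.61 over the 23 arrays. Over the 19 arrays their residual r was 0.32, 0.23, 0.52 and 0.32, so that of Psma3 and Psmd14 changed sign. The points share arrays, line groups and the component on which 4 arrays stood apart, and the r values are descriptions.

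Psmb6 lies on chromosome 11, as do 9 of the 42 members. The 5 measured genes on each side of it in the order of the RefSeq table were Alox12, Alox12e, Alox15, Med11 and Tm4sf5 before it, and Pld2, Chrne, Slc25a11, Rnf167 and Pfn1 after it. Their line differences ranged from -0.06 for Alox12e to 0.11 for Med11, and none was called. Alox12, Alox15, Chrne and Pfn1 were at the floor on every array, Tm4sf5 on 22 and Pld2 on 20, so 6 of the 10 give no usable difference. The members on that chromosome other than Psmb6 ranged from -0.54 for Psme4 to 0.71 for Psmb3.

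Other probe sets of the members were few. Of 11 not used under the rule, 7 were at the floor on most arrays. A second probe set of Psmb1 had a line difference of 0.24 where the one used had -0.13, and one of Psmd11 had 0.43 where the one used had -0.02, so these disagreed in sign. Those of Psmc3 had 0.31 and 0.05 beside 0.33. The probe sets used for Psma3, Psmb4, Psmb5, Psmb7, Psmc3 and Psmd12 carry the manufacturer's suffixes for probes that similar transcripts can share, so their levels may hold more than 1 transcript.

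The other genes of the pathway were taken from lists chosen with earlier results known, and no list had a called gene between the lines or for MA in limma. Medians are over the genes of a list above the floor on some array. For 13 of the 14 measured genes of proteasome assembly and regulation the median line difference was -0.06, and the smallest p-values were those of Zfand5, a ubiquitin-binding protein, at -0.69 (SE 0.256) and Usp14, a deubiquitinating enzyme of the proteasome, at -0.33. For 16 of 17 genes of ubiquitin and its conjugating enzymes the median was -0.20, with Ube2r2 at -0.36 and Ube2h at 0.29. For 19 of 21 ubiquitin ligases it was -0.17, with Mdm2, a ubiquitin ligase for a tumour suppressor, at -0.64 (SE 0.175, limma adjusted p = 0.175) and Nedd4 at -0.60. The 10 shuttle and extraction factors had a median of 0.02, with Sqstm1 at 0.20 and Ubqln2 at 0.11. The 14 deubiquitinating enzymes had a median of 0.01, with Uchl1, abundant in neurons, at 0.60 and Usp9x at -1.04. Of the 21 genes of antigen processing and the interferon response, 15 were above the floor and had a median of 0.01, with Gbp3 at -0.10 and Ifit2 at -0.33. For MA the medians of these lists were -0.09, -0.05, -0.03, 0.03, -0.02 and -0.01 in the same order, beside 0.00 over all genes.

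Markers of other cell types that a dissection could hold gave no called line difference either. The median line difference was -0.32 over the 6 oligodendrocyte markers above the floor, 0.31 over the 7 microglial, -0.03 over the 7 astrocyte, 0.14 over the 8 endothelial and blood, 0.01 over the 4 cortical neuron, 0.07 over the 3 choroid plexus and ependymal and -0.18 over the 5 striatal projection neuron markers. The most extreme of their lists were Mobp, of myelin, at -0.80 (SE 0.193, limma adjusted p = 0.117) and the microglial C1qb at 1.03 (SE 0.471, limma adjusted p = 0.38). The oligodendrocyte markers ranged from -0.80 to -0.16. The microglial ones ranged from -0.47 to 1.03, 5 positive and 2 negative, with a median of 0.60 after saline and -0.08 after MA. Their line difference without the arrays that stood apart is not given here. The mean level of the microglial markers ranged from 6.09 to 8.44 in the HMACT groups and from 6.16 to 7.22 in the LMACT groups, with Cx3cr1, Aif1 and Itgam at the floor. That of the oligodendrocyte markers ranged from 7.51 to 8.86 in HMACT and from 8.33 to 9.28 in LMACT. The control 3′ minus 5′ difference had a median of 2.28 in HMACT and 2.57 in LMACT. The part of the microglial and of the oligodendrocyte markers in the line difference of Psmb6 was not tested.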

How the data were processed

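RNA from 23 pooled nucleus accumbens samples was measured on 1-colour Affymetrix-type mouse arrays. The deposited values, 1 for each array and probe set, were read as log2 intensities from their range. How the authors normalized them is not given in the sources used here; per the submitters' processing notes they used R 2.7.1. Of 12488 probe sets, 66 were controls, 10833 had 1 gene in the platform annotation, 396 several and 1193 none listed. The probe set with the highest mean stood for each of 8251 genes, of which 8237 matched RefSeq (GRCm38.p6) by gene ID; 44.2% of values lay under the floor of 2.3.

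The 4 group means were fitted in limma 3.58.1 (R 4.3.3) over all 23 arrays with no covariate, with empirical Bayes and Benjamini-Hochberg adjustment over all genes, and the fit was tested on simulated data. Nothing says that pools came from separate litters, so p-values cover only the variation among the pools, which may be technical. No 2 arrays held the same values. Alternatives covered normalization, dim genes, probe sets, the variance model, array weights, lot, age, blocks and left-out arrays. The members, gene lists and marker lists were chosen with earlier results of these data known. All members are named. Values by array or group are given for Psmb6, the other proteolytic subunits, and the 3 other members with the smallest p for the line and for the MA difference. From each pathway list the 2 genes with the smallest line p are named, and 5 genes most like Psmb6 by each measure. Psmc6, Psmd4, Psmd14, Psme1, Psmd3, Psmb8, Psmc5 and Psme4 were given values by array or range after they were seen, as were Mobp and C1qb.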

Additional observations from a re-analysis of the deposited data

Results flagged for a closer look

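Of 44 sets of values within a group of 5 or 6 arrays, 7 had an array far from its group; chance gives about 1 in 20. Psma3 read 10.07 on HMACT saline replicate 3, where the other 5 arrays of the group read 11.54 to 11.88, and 11.18 on HMACT MA replicate 3, where the others read 11.84 to 12.18. Psmb10 read 9.77 on HMACT MA replicate 3, against 7.99 to 8.54. Psmb6 minus the median of the other members was 2.56 on HMACT saline replicate 3, against 0.06 to 0.98. These 4 values lay on arrays that stood apart from the rest over all genes.

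The other 3 lay on arrays that did not. Psmb3 read 10.37 on LMACT saline replicate 3, against 9.74 to 9.96. Psmb7 read 9.57 on LMACT MA replicate 3, against 9.23 to 9.30. Psmd10 read 4.59 on HMACT saline replicate 4, against 4.05 to 4.12.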

How the results depend on the processing

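The direction of the Psmb6 line difference was kept under all 35 alternatives run, at 1.38 to 1.71, with limma adjusted p from 0.00178 to 0.547. Its call was lost with mean age as a covariate (1.57) and over pools under 100 days (1.41). The latter leaves fewer arrays, and the lines still do not overlap in age. Both settings left 0 members and 1 of the 8251 genes past the threshold, against 16 genes in the main fit. Leaving out 1 array at a time gave 1.41 to 1.71, with 0 to 1 members and 9 to 76 of all genes past the threshold. Array weights raised the number of members past the threshold to 9 for the mean line difference, 4 after saline and 2 after MA, and the number of all genes from 16 to 830, from 0 to 236 and from 0 to 136; the cause was not tested.

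The small Psmb6 interaction changed sign under quantile normalization (0.01), median centring (0.02), array weights (0.39), pools under 100 days (0.14) and without the arrays that stood apart (0.60), and ranged from -0.25 to 0.29 with 1 array left out. The mean MA difference of Psmb6 ranged from -0.44 to -0.14 and that in LMACT from -0.57 to -0.06 with 1 array left out. That in HMACT was 0.03 without the arrays that stood apart and ranged from -0.52 to 0.00 with 1 array left out. The age difference of Psmb6 within HMACT was -0.27 without the arrays that stood apart, 0.58 in the lot of most arrays, and -0.17 to 0.35 with 1 array left out. The cause of these changes was not tested.

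Same-numbered arrays of the 2 injections in a line correlated in their deviations at -0.62 to 0.88, and not every pair was over 0.1, so the numbers were not taken to pair the samples. In HMACT, 5 of 6 pairs were over 0.1, and replicates 1, 2 and 4 have the same mean age in both injections. Each same-numbered pair within a line also shared a chip lot, with the array of the rarest lot counted as before. A pairing by number therefore remains possible, and the main fit does not include it. With the replicate block, the Psmb6 line difference was 1.63 and its interaction 0.08. With the replicate block within line, the interaction was 0.05. Members at an unadjusted p under 0.05 for MA in limma then went from 1 to 3 in HMACT and from 6 to 2 in LMACT. The share of all genes at that threshold was not counted with this block. Values under the floor, 44.2% of all, limit what can be seen in Psmb8, Psmb9, Psmc4 and Psmd2, and the number of arrays limits the rest.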
